A study of Apis mellifera with 2 samples.

Results

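The genes PGRP-S3, Pgrp-s2, B-gluc1 and CTL5 encode proteins that recognise microbes, and they were followed in honey bee (Apis mellifera carnica) hemocytes, the blood cells of the open insect circulation. They were picked by symbol in the RefSeq table of the Amel_HAv3.1 assembly, and the protein identifiers in the deposited tables assigned 8 of 23471 coding sequences, and 4 of 9935 genes, to them. The adults, nurse bees in the words of the series, were newly emerged (under 1 day of age), taken at intervals of 24 h from brood frames in a chamber at 34 °C, and the larvae were workers aged 8 days, in instar 5, used directly from the hive. Each RNA preparation used the cells spun from 320 µL of hemolymph, and the number of insects pooled is not stated in the labels. There was 1 polyadenylated RNA library per stage, so every difference below is a difference between 2 libraries without replicates, and none carries a p-value or standard error.

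Peptidoglycan recognition proteins bind the peptidoglycan of bacterial cell walls, and in Drosophila the short, secreted ones either feed the Toll pathway or cut peptidoglycan. Proteins of the beta-glucan recognition family bind glucans of fungal walls and act ahead of protease cascades that lead to Toll signalling and to melanization. C-type lectins bind sugars on microbial and host surfaces and take part in opsonization and cell adhesion. In insects such proteins are made by hemocytes and also by the fat body.

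PGRP-S3 and CTL5 each have 1 coding sequence, of 570 and 654 bases, which stand on the same chromosome record of the deposited tables. Pgrp-s2 has 2 coding sequences, of 585 and 513 bases, and B-gluc1 has 4, each of 1437 bases; these genes stand on separate records. Estimated counts summed per gene were whole numbers, within 0.001, for all 4 genes in both libraries, as they were for 89.3% of all genes in adults and 91.4% in larvae. The sums thus gave no sign, beyond that tolerance, of read pairs split in fractions between any of them and another gene. They cannot show whether a read pair that matches another gene was assigned whole.

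Estimated counts summed to 16880784 for the adult and to 17657463 for the larval hemocytes. Counts were put on a common scale as CPM, counts per 1000000 of library sizes scaled by TMM, a method that sets the bulk of genes equal between libraries; 1 count was then worth 0.0525 CPM in adults and 0.0639 CPM in larvae. Intervals are exact 95% intervals that cover counting error only. A difference was called large when the fold was at least 4, the interval bound nearest to 1 was also at 4-fold or more, and the higher library had at least 10 CPM. The rule is one of size and not a test. All 4 genes passed the minimum of 10 counts over both libraries, as did 8798 of 9935 genes.

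Transcripts of the peptidoglycan recognition genes PGRP-S3 and Pgrp-s2 were more abundant in the adult than in the larval library, by a wide margin. B-gluc1 was also higher in the adult library, by less, and CTL5 differed little, in a direction that depended on the scaling. PGRP-S3 and Pgrp-s2 met the rule for a large difference on the adult side, 2 of 4 genes, against a background of 3.14% of all compared genes (276 genes). None of the 4 met it on the larval side, where the background was 2.72% (239 genes). The split of all large differences depends on the scaling: 53.6% were on the adult side with TMM, 72.1% under plain totals and 79.5% on the TPM scale. Among the compared genes that carry a symbol, as these 4 do, 6.67% met it on each side. Of the 880 genes in the same bin of mean CPM as PGRP-S3 (genes were ranked and cut into bins of equal size) 2.05% met the rule on the adult side, and of the 880 in the lower bin that held Pgrp-s2, 8.86% did.

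PGRP-S3, for which the gene table gives Pgrp-sa as another name, had 1849 counts in adult hemocytes and 72 in larval hemocytes. This came to 97.0 CPM (92.7 to 101.6) for the adult and 4.60 CPM (3.60 to 5.80) for the larva. The adult level was 21.1 times the larval one (16.7 to 27.1), with a log2 fold of 4.39. Of the 8798 compared genes, 140 (1.59%) had a log2 fold at least as high.

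Pgrp-s2, also a short peptidoglycan recognition gene, had 295 counts in adult hemocytes and 1 in larval hemocytes. It reached 15.5 CPM (13.8 to 17.4) in adult hemocytes against 0.0639 CPM (0.00162 to 0.356) in larval hemocytes. The ratio of adult over larval CPM was 242, with an interval of 43.1 to 9600 that is wide because it rests on a single larval count. Only 13 of the 8798 compared genes (0.148%) had, like Pgrp-s2, at least 10 CPM in the adult library and at most 3 counts in the larval library; 8 genes (0.0909%) showed the opposite pattern.

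The coding sequences of Pgrp-s2 differ in length and were not used alike. The sequence of 585 bases took 278 of the estimated adult counts, a share of 94.3% (exact binomial interval 90.9 to 96.6), and none in the larval library. With the larval value set at a floor of 3 counts, adult hemocytes had 76.1-fold more of it, and the lower end of the exact interval was 61.5. The sequence of 513 bases took the remaining 16.9 adult counts and the single larval count. Read pairs that match both were divided by the authors' counting, so these shares are estimates. Resting on the single larval count, the larval share of the sequence of 585 bases had an exact binomial interval of 0 to 97.5%.

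B-gluc1, a beta-glucan recognition gene listed also as Gnbp1-2, had 699 counts in adult hemocytes and 180 in larval hemocytes. Its level was 36.7 CPM (34.0 to 39.5) in adults and 11.5 CPM (9.89 to 13.3) in larvae, a ratio of 3.19 (2.70 to 3.78). The interval excludes equality, as it did for 41.8% of all compared genes on the adult side, and B-gluc1 stayed below the rule for a large difference. On the TPM scale, which has no interval in the rule, it passed 4-fold, at a TPM ratio of 4.66. Its 4 coding sequences had identical values, with 174.75 counts each in adult and 45 each in larval hemocytes, a share of 25% apiece. They have equal length and effective length, and the counting gave no preference among them, so these data hold no information on which of the transcripts was present.

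CTL5, the C-type lectin, had 1273 counts in adult hemocytes and 1169 in larval hemocytes. That is 66.8 CPM (63.2 to 70.6) in adults and 74.7 CPM (70.5 to 79.1) in larvae, a ratio of 0.894 (0.825 to 0.969), an interval below equality as it was for 40.9% of all compared genes. The direction depends on the scaling: the log2 fold was -0.16 with TMM, 0.19 under plain totals and 0.34 on the TPM scale. Relative to the median of all compared genes under the same scaling, which was 0.02, 0.37 and 0.55, CTL5 stood at -0.18, -0.18 and -0.20. PGRP-S3 stood 4.37, 4.37 and 4.33 above these medians, and B-gluc1 1.65, 1.65 and 1.66 above. TMM and plain totals differ only by a factor per library, so subtracting the median makes their values nearly equal by construction.

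Levels were compared between genes per length, as TPM (the authors' values, relative to depth and effective length). In the adult library the order was PGRP-S3 at 243 TPM (232 to 254), CTL5 at 131 (124 to 139), Pgrp-s2 at 37.6 (33.4 to 42.1) and B-gluc1 at 23.9 (22.2 to 25.8). Each neighbour in that order differed from the next beyond counting error; the closest were Pgrp-s2 and B-gluc1, at a TPM ratio of 1.57 (1.37 to 1.80). In the larval library the order was CTL5 at 103 TPM (97.6 to 110), PGRP-S3 at 8.21 (6.43 to 10.3), B-gluc1 at 5.13 (4.41 to 5.93) and Pgrp-s2 at 0.141 (0.00358 to 0.787). Here too neighbours differed beyond counting error, with PGRP-S3 over B-gluc1 the closest at 1.60 (1.20 to 2.12).

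**Figure D1:**
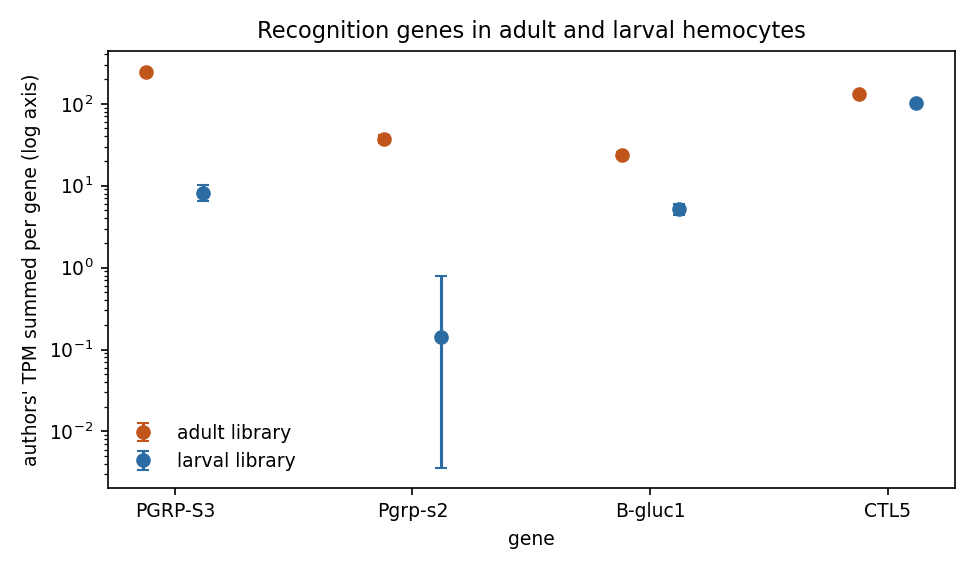
Authors' TPM summed per gene (log axis) for the 4 recognition genes, with the adult library left and the larval library right of each tick; bars are exact Poisson 95% intervals, which cover counting error only. PGRP-S3 stood at 243 TPM (adult) and 8.21 TPM (larva) and Pgrp-s2 at 37.6 (adult) and 0.141 (larva), while CTL5 stood at 131 (adult) and 103 (larva).

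Among all genes, PGRP-S3 lay at percentile 93.4 of TPM in the adult library and at percentile 41.7 in the larval library. Pgrp-s2 lay at percentiles 63.6 (adult) and 12.9 (larva), B-gluc1 at 52.2 (adult) and 35.7 (larva), and CTL5 at 87.6 (adult) and 86.8 (larva).

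The makeup of the group differed with it. The 4 genes summed to 436 TPM in adults and 117 TPM in larvae. PGRP-S3 and Pgrp-s2 made up 64.4% of that sum in the adult library and 7.15% in the larval library. CTL5 made up 30.1% in adults and 88.5% in larvae, and B-gluc1 kept a share of 5.49% in the adult against 4.39% in the larval library.

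**Figure D2:**
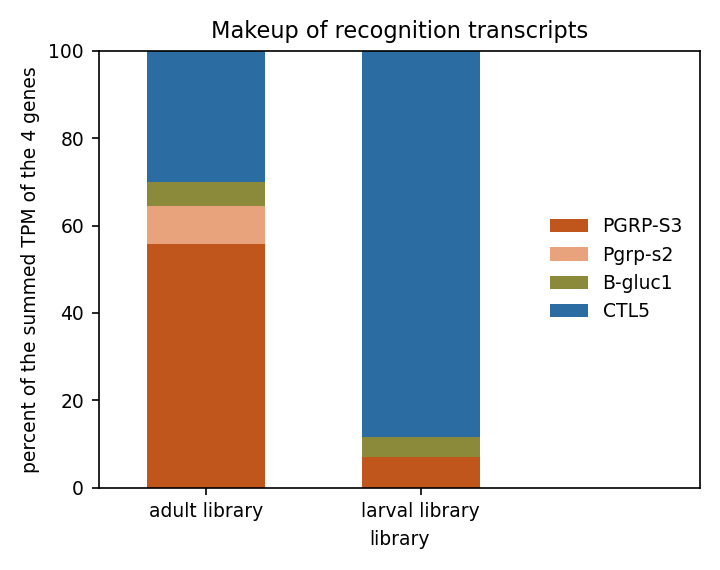
Percent of the summed TPM of the 4 genes that each gene made up, in the adult library (left bar, 436 TPM in all) and the larval library (right bar, 117 TPM in all). PGRP-S3 took the largest part of the adult bar at 55.8%, and CTL5 took the largest part of the larval bar at 88.5%; there are no error bars because each stage has 1 library.

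Ratios between genes of the same library need no scaling factor. Library sizes cancel in them, so their order of adult excess equals that of the CPM ratios by construction. PGRP-S3 had 1.45 counts per CTL5 count in the adult library and 0.0616 in the larval library, a 23.6-fold difference (18.4 to 30.7). B-gluc1 had 0.549 counts per CTL5 count in adults and 0.154 in larvae, a 3.57-fold difference (2.96 to 4.30). PGRP-S3 per B-gluc1 count differed 6.61-fold (4.93 to 8.93). Per Pgrp-s2 count, PGRP-S3 had 6.27 counts in adults and 72 in larvae. The adult over larval quotient of 0.0871 (0.00217 to 0.505) puts the excess of Pgrp-s2 above that of PGRP-S3. Its bound again rests on 1 larval count.

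**Figure D3:**
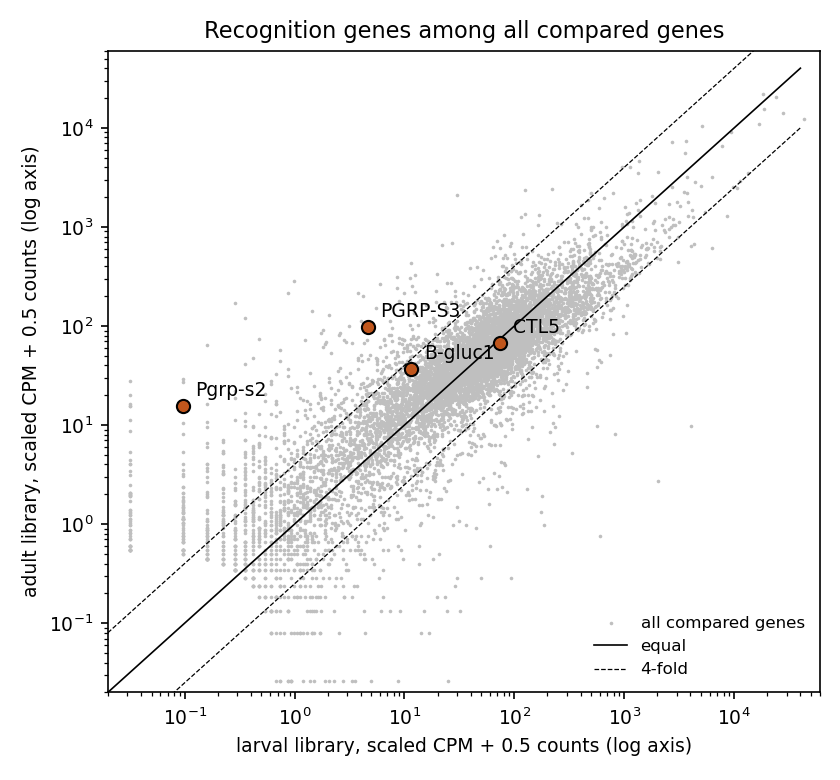
Scaled CPM of the 8798 compared genes in the adult library (vertical, log axis) against the larval library (horizontal, log axis), with 0.5 counts added; orange points are the recognition genes, the solid line marks equal levels and the dashed lines 4-fold differences. PGRP-S3 and Pgrp-s2 lie above the upper dashed line, B-gluc1 lies below it at a ratio of 3.19, and CTL5 lies on the body of the cloud.

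The genes with a symbol whose levels in both libraries were most like those of each recognition gene were found by distance in the plane of log2 CPM, over 311 candidates and 2 libraries. Nearest to Pgrp-s2 were Obp3, an odorant-binding protein gene, at a distance of 0.74 (310 adult and 2 larval counts), and the defensin gene Def1 at 1.43. The next was the apidermin gene Apd-2 at 1.63, whose larval count was 0. All distances were taken with 0.5 counts added. Those to Pgrp-s2 rest on larval counts of 2 or fewer and so depend on the counts added. For PGRP-S3 the nearest were Mblk-1 and Cyp4g11, both at 1.41, and A4 at 1.48. Nearest to B-gluc1 were Glob1 at 0.53, Hbg2 at 0.59 and Obp10 at 0.90. CTL5 had the closest matches, with Cox6c at 0.14, Rep at 0.22 and Rnft2 at 0.22.

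Genes of other immunity lists were described beside the recognition genes, and whether they act downstream of them was not tested. The Toll and Imd list held 4 measured genes with a median log2 fold of 0.14, against 3.03 for the 4 recognition genes and 0.02 for all compared genes. Most names sought for this list, among them Relish, Myd88, PGRP-S1 and PGRP-LC, matched no symbol. The median therefore does not describe the pathways as a whole. None of the 4 genes found met the rule for a large difference, which 3.14% of all compared genes met as higher in adults and 2.72% as higher in larvae. The Toll family receptor 18-w stood at 108 CPM in adults and 35.3 CPM in larvae, a ratio of 3.07 (2.79 to 3.37), close in size to that of B-gluc1, and like B-gluc1 it passed 4-fold on the TPM scale, at a TPM ratio of 4.53. Imd, the adaptor of the Imd pathway, had a ratio of 1.13 (1.05 to 1.23). Dl had a ratio of 1.07 (0.997 to 1.15), an interval that includes equality. It entered the list by its symbol alone, read as dorsal, an NF-kappa B factor downstream of Toll in Drosophila; the gene table gives no description to check this, and without Dl the median of the list was 0.18. For cact1, the inhibitor cactus, the ratio was 0.790 (0.689 to 0.907), with a log2 fold of -0.34 under TMM that turned positive with plain totals (0.01) and with TPM (0.20).

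Of the antimicrobial peptide list, 3 genes were found by symbol, and most names sought, among them abaecin and hymenoptaecin, were not. The count minimum was passed by 2 of these 3. For both, the adult level exceeded the larval one beyond counting error, as it did for 41.8% of all compared genes. The median log2 fold of these 2 genes was 3.21, beside 3.03 for the 4 recognition genes. Apid1, which encodes apidaecin, stood at 101.5 CPM in adults and 50.2 CPM in larvae, a ratio of 2.02 (1.86 to 2.20). Def1 had 126 adult counts and 2 larval counts, a ratio of 51.7 (14.0 to 432), and at 6.61 CPM in the adult library it lay below the 10 CPM of the rule. Def2, with 5 adult counts and 0 larval counts, was not compared.

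In the melanization list, for which most names sought also matched no symbol, 3 of the 4 genes found passed the count minimum, with a median log2 fold of 0.07. Of these 3 genes, 1 (TyHyd) met the rule for a large difference on the adult side, as did 3.14% of all compared genes. None met it on the larval side, against 2.72% of all compared genes. PPO, the prophenoloxidase of hemocytes, stood at 14041 CPM in adults and 28019 CPM in larvae, a log2 fold of -0.997. TyHyd, the tyrosine hydroxylase gene, had 215 counts in adults and 0 in larvae. With the floor of 3 counts for the larva, the adult level was 58.8-fold higher, and the lower end of the exact interval was 47.4. Y-y, a yellow family gene, had 68 adult and 53 larval counts, which do not differ beyond counting error, and Y-e3 had 2 adult counts and 1 larval count.

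**Figure D4:**
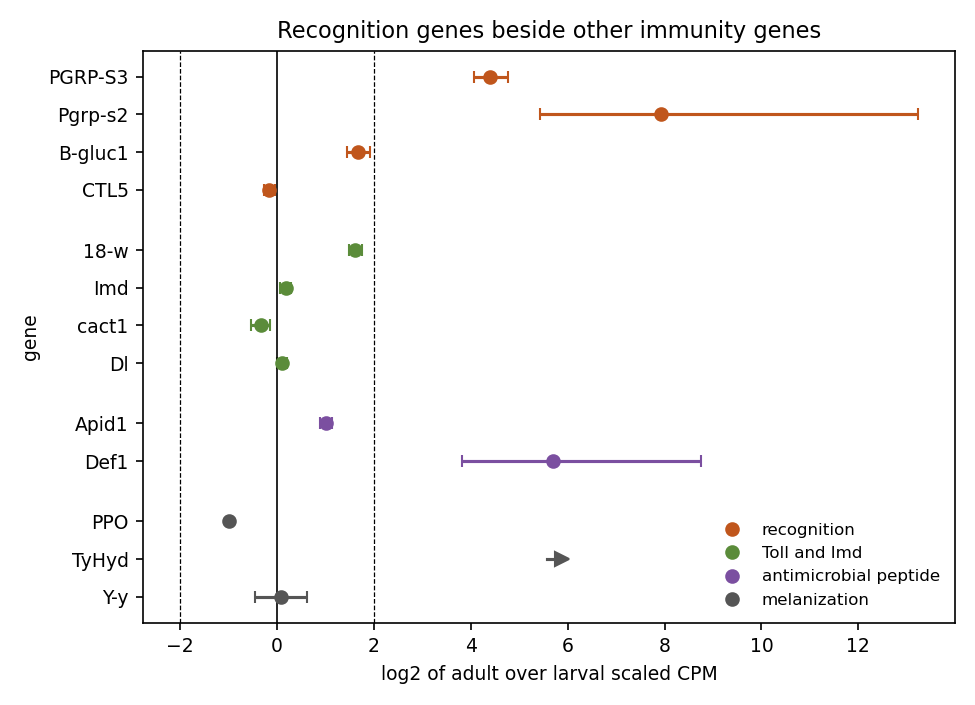
Log2 of the ratio of adult over larval scaled CPM for recognition, Toll and Imd, antimicrobial peptide and melanization genes; bars are exact 95% counting intervals, the arrow marks a lower bound against a larval count of 0, with a line from the lower end of its exact interval, and the dashed lines mark 4-fold. Of the 13 genes drawn, PGRP-S3, Pgrp-s2, Def1 and TyHyd lie wholly beyond the adult dashed line, and 18-w lies near B-gluc1.

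PPO was the single hemocyte marker of the 9 listed that the gene table names, and it lay at percentile 99.9 of TPM in both libraries. Per 1000 PPO counts, PGRP-S3 had 6.91 counts in adults and 0.164 in larvae, a 42.1-fold difference (33.2 to 54.0), and B-gluc1 had 2.61 in adults and 0.411 in larvae, a 6.36-fold difference (5.39 to 7.54). CTL5 had 4.76 per 1000 PPO counts in adults and 2.67 in larvae, a 1.78-fold difference (1.65 to 1.93). PPO itself was higher in the larval library, at a log2 fold of -0.997, so these quotients exceed the CPM ratios by construction. The CPM ratio of CTL5 was 0.894. In bulk samples, fewer cells of a type and less RNA per cell cannot be told apart.

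Markers of other tissues moved between the libraries as well, and their part in the differences of the recognition genes was not tested. The 7 fat body and hemolymph protein genes found, of 8 listed, summed to 190 CPM in adults and 6888 CPM in larvae; 6 were higher in the larva and 1, Vg, in the adult. The 2 oenocyte genes summed to 89.6 CPM in adults and 9.72 CPM in larvae and went opposite ways, with Cyp4g11 at 84.6 CPM in adults and 1.73 CPM in larvae and FAR1 at 4.99 CPM in adults and 7.99 CPM in larvae. The 5 neuronal genes found, of 7 listed, summed to 1140 CPM in adults and 270 CPM in larvae, most of it Syt1; 3 were higher in the adult library and 1 in the larval library. The cuticle genes were split: 7 genes, of which 6 passed the count minimum, summed to 59.7 CPM in adults and 53.2 CPM in larvae, with 3 higher in the adult library and 2 in the larval library beyond counting error. Among them Apd-1, Apd-2 and Apd-3 were at 0 in larvae, while CPF1 had 74 counts in adults and 319 in larvae. The listed Lac2 was not found, and a separate entry named apd-3 had 0 counts in both libraries. The 4 silk gland genes summed to 10.1 CPM in adults and 53.7 CPM in larvae, with 3 higher in the larval library, and 4 muscle genes of 5 listed to 24.5 CPM in adults and 41.3 CPM in larvae. Of the 6 royal jelly genes, which summed to 37.2 CPM in adults and 9.91 CPM in larvae, 2 passed the count minimum and went opposite ways: Mrjp7 had 705 counts in adults and 13 in larvae, and Mrjp3 had 0 in adults and 136 in larvae.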

How the data were processed

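RNA from adult and larval hemocytes was measured in 1 library each, sequenced as read pairs of 150 bases. The estimated counts deposited for each coding sequence came from kallisto, per the submitters' processing notes; version, index and build were not stated there. TPM from the authors, per the file headers, stand beside the counts and correct for effective length. All 23471 coding sequences matched a gene by protein identifier. Counts were summed per gene, rounded to whole numbers and scaled by TMM (edgeR 4.0.16, R 4.3.3; factors 1.13 for adult and 0.886 for larva) over genes with at least 10 counts. Log2 folds add 0.5 counts, and ratios add none. Intervals are Clopper-Pearson for ratios and shares, Poisson for levels and conditional exact for ratios of ratios, at 95%, and cover counting error only. PCR copies are not independent molecules, so the intervals can be too narrow even for that. A count of 0 was set at a floor of 3 counts, 0.157 CPM in adults and 0.192 CPM in larvae. The size rule and intervals were tested on simulated data that held counting error only, as the intervals assume. That test does not cover variation between samples. The protocol marks strand, but whether counting used it is not given. The members and lists were chosen with earlier results of these data known; lists were matched by symbol, and only 398 genes have one. Named genes were the members, the measured genes of the 3 other lists and the 3 nearest genes per member. Alternatives were plain totals, DESeq2 1.42.0 size factors, TPM (0.05 added), other count minimums, priors and fold thresholds, totals without mitochondrial genes and the leading coding sequence alone. Sequence relatives of the members were not analysed here. Python 3.11.15 with scipy 1.17.1 did the rest.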

Additional observations from a re-analysis of the deposited data

How the results depend on the processing

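Of 105 values recomputed under alternatives, 88 kept within their counting interval, or within 1.5 times for a count, and 17 moved. Among the 88 are the larval number of recognition genes, 0 in every setting, and the rise of the adult number from 2 to 3. The melanization median, 0.07 with TMM and 0.61 with TPM, was also counted as kept. The authors' TPM moved the log2 fold of PGRP-S3 to 4.88, of B-gluc1 to 2.21 and of CTL5 to 0.34, and plain totals moved B-gluc1 to 2.02 and CTL5 to 0.19; DESeq2 size factors moved none of the 4. The number of recognition genes with a large difference was 2 on the adult side under 8 alternatives, and 3 with TPM or at 2-fold, where B-gluc1 joined (18-w also passed 4-fold with TPM); it was 0 on the larval side throughout. The median of the recognition genes became 3.38 with plain totals and 3.54 with TPM, and that of the Toll and Imd list 0.49 and 0.65. Over all genes, adult and larval calls became 552 and 142 with TPM, 879 and 931 at 2-fold, and 120 and 86 at 8-fold. Of these calls 53.6% were on the adult side with TMM, 72.1% with plain totals (413 and 160) and 79.5% with TPM. Leaving out 1 of the 4 equal coding sequences of B-gluc1 moved a share to 33.3% in both libraries by construction. No paired analysis was possible because each stage has 1 library. The value of Pgrp-s2 is limited by depth: with 1 larval count its log2 fold was 7.39 with 0.5 counts added, 6.44 with 2, and 8.99 for its leading coding sequence alone, which has a larval count of 0 and so depends on the counts added. The Toll and Imd list without Dl, chosen after seeing the data, had a median of 0.18.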

Other observations

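The gene models around the recognition genes did not all share their side. No other gene of the table overlapped PGRP-S3; its neighbours in gene order, LOC412125 and LOC552310, had log2 folds of 1.35 and -0.34 against its own 4.39. Pgrp-s2 overlapped in part with LOC100576758, which had 50 adult and 2 larval counts, a log2 fold of 4.08. Its neighbour on the other side, LOC725158, had 41 adult and 7 larval counts. B-gluc1 holds LOC107964975 within its span, at 9.13 CPM in adults and 4.28 CPM in larvae. CTL5 overlapped in part with the ribosomal protein gene RpL35, at 316 CPM in adults and 747 CPM in larvae, and with LOC409195, at 47.2 CPM in adults and 37.9 CPM in larvae. Counting was over coding sequences, and reads of overlapping genes cannot be separated by strand from what the sources used here give.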
